A study of Mus musculus with 2 samples.

Results

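The 9 casein kinase genes of the array, Csnk1a1, Csnk1d, Csnk1e, Csnk1g1, Csnk1g2, Csnk1g3, Csnk2a1, Csnk2a2 and Csnk2b, were compared between a pair of NIH3T3 cell lines, an established line of mouse embryonic fibroblasts. They were taken by the gene name that the deposited scanner files give each probe, which selected 24 probes, among 19698 named genes in all. A RefSeq gene table gave the same gene for all 24. Each group was 1 single-colour Agilent mouse array of total RNA: cells stably transfected with the empty plasmid pcDNA3.1, and cells stably transfected with pcDNA3.1-MARVELD1, both grown in 10% serum and selected with the drug G418, per the labels. MARVELD1 belongs to the MARVEL domain family of membrane proteins. The labels do not say whether a line was a clone or a pool, so a difference between the lines and an effect of the plasmid cannot be told apart. The question was how MARVELD1 influences the expression profile.

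Casein kinase is a shared name for distinct kinase families that were first assayed on the milk protein casein. The CK1 enzymes act as single subunits and often recognise sites already phosphorylated by another kinase. CK1 alpha primes beta-catenin for degradation, CK1 delta and CK1 epsilon phosphorylate the PER proteins of the circadian clock, and the membrane-anchored CK1 gamma enzymes phosphorylate the Wnt co-receptor LRP6. CK2 is a constitutively active tetramer of catalytic subunits, alpha (Csnk2a1) or alpha prime (Csnk2a2), with a dimer of the regulatory beta subunit (Csnk2b), and it phosphorylates acidic sites in a very large number of proteins.

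Both arrays lay on 1 slide. On them 68.7% and 69.0% of the spots were well above background, with 75th percentiles of intensity of 768.1 for the empty vector and 703.3 for the other. Each difference below is the log2 intensity on the array labelled MARVELD1 minus that on the empty vector array, after each array was divided by its own 75th percentile. Intensities are quoted before that division, in arbitrary units. With 1 array per group there is no replicate and no test, so each difference describes these arrays. Every casein kinase probe was printed as a single spot. Probes printed 10 times gave the spot noise: the SD of a difference between single spots was 0.17 for 72 probes at 1000 or more on both arrays, and 0.51 for 97 dimmer ones. This SD covers spot noise only. Marveld1 itself gave differences of -0.34 (8724.7 and 6292.8) and -0.42 (184.4 and 126.4) with its probes, or -0.61 and -0.53 after loess. The spot SDs were 0.17 and 0.51, so the bright probe was lower by just over 2 spot SDs. Neither probe was higher on the array labelled MARVELD1, and every direction rests on the label. The relation of these probes to the plasmid insert is not stated by the labels. Of 10 fibroblast markers 10 were detected, with intensities from 2674.6 to 214601.1 for the empty vector and from 1681.8 to 233930.8 for the other. Their median difference was -0.56, with 3 of the 10 above 0, or 0 after loess. Pdgfrb, Col3a1 and Fn1 were 2-fold or more lower, 3 of 10, against 3.57% of all genes. A dim second probe of Col3a1 gave -0.10 and a second probe of Fn1 gave -2.47. Of 5 epithelial markers 2 were detected, and the defining genes Epcam and Cdh1 were not. The keratin gene Krt18 was measured on the array labelled MARVELD1 alone, at least 2.35-fold higher there with the 75th percentile scaling. With another background correction, normexp, its bound was a log2 difference of 0.64, under 2-fold. The other detected keratin gene, Krt8, read 218.8 and 211.2, a difference of 0.08, or -0.03 with scaling to the array median. All 6 macrophage markers (41.1 to 4194.7 and 52.2 to 2999.1) and 5 endothelial markers (9.9 to 1288.6 and 43.0 to 708.5) were detected on at least 1 array. The part of any such shift in the results was not tested. In RNA from a whole culture, fewer cells with a transcript and less transcript per cell cannot be told apart.

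With each gene represented by the probe of highest mean signal among its own probes, the casein kinase genes read higher on the array labelled MARVELD1, by less than 2-fold. The median difference was 0.76, from 0.03 for Csnk1g2 to 0.99 for Csnk2a2. The median of all 16532 detected genes was 0.19, with quartiles of -0.14 and 0.50. All 9 differences were above 0, as were 65.4% of all genes. Of the 9, 5 were 1.5-fold or more higher, against 19.7% of all genes, and 0 were 1.5-fold or more lower, against 9.03%. None passed 2-fold (0 higher and 0 lower), a limit passed by 5.52% of all genes upward and 3.57% downward. After loess, which removes the trend of the difference with intensity, 8 of 9 were above 0, against 52.9% of all genes. There too 0 passed 2-fold, against 3.74% of all genes higher and 4.72% lower, and 2 were 1.5-fold or more higher, against 11.9%. The genes were chosen with earlier results of this comparison known, so these counts describe them and support nothing further. The choice of probe mattered. With the mean of all measured probes of each gene, the median difference was 0.29 in place of 0.76, against 0.15 for all genes. There 2 casein kinase genes were 1.5-fold or more higher in place of 5, against 15.1% of all genes.

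**Figure D1:**
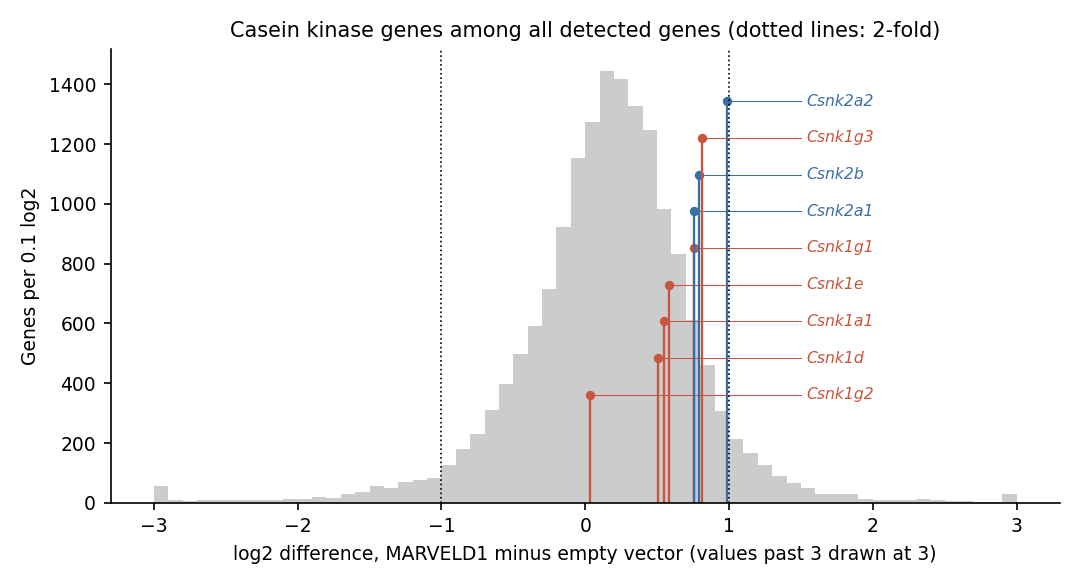
Grey bars count all 16532 detected genes by log2 difference (MARVELD1 minus empty vector, in steps of 0.1), and lines mark the casein kinase genes, CK1 in red and CK2 in blue, each by its probe of highest mean signal; line heights only separate the labels. Csnk1g2 lies at 0.03 and the other genes between 0.50 and 0.99, inside the dotted 2-fold limits.

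Among the CK2 subunits, the catalytic Csnk2a2 differed most. Its probe, at chr8:97972108-97972167 on mouse build mm9, read 4847.2 with the empty vector and 8791.1 on the array labelled MARVELD1, a difference of 0.99, or 1.98-fold, more than 4 times the spot SD, here and after loess (0.73). Of all genes, 5.78% differed more in that direction. A pair of probes named on the array for a predicted transcript similar to the alpha prime subunit lie just upstream in the same locus and strand; they were looked up after the other values were seen. The nearer, 1465 bases upstream, read 2935.9 and 4049.2, a difference of 0.59, and the farther, 3277 bases upstream, stayed below the background limit of both arrays. The Csnk2a2 locus was therefore higher at both probes that gave a signal, by unequal amounts.

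Csnk2b, the regulatory subunit that holds the CK2 tetramer together, read 17101.6 and 27087.6 with its probe at chr17:35253177-35253236, a difference of 0.79, or 1.73-fold. It had no other probe. Its probe is one of 2 casein kinase probes with a canonical polyadenylation hexamer, the signal that marks where a transcript is cut and tailed; the other belongs to Csnk1a1. Of all 41084 probes 7.48% held AATAAA or ATTAAA in the printed strand and 7% on the other strand, where 3 casein kinase probes did. The 30 bases around the hexamer, in capitals, are shown with the last 30 bases of the Csnk2a2 probe, since these are the CK2 probes of the clearest differences. Probe sequences are those of the deposited scanner files, written 5-prime to 3-prime.
Csnk2b: tttttagtttaaATTAAAggaattgttact
Csnk2a2: aaaaggttcacatgcctttggcttcctgtt

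Csnk2a1, the main catalytic subunit, was higher beyond the spot noise at 1 of its 3 probes. The probe nearest the 5-prime end, chr2:152098418-152099840, covers more genome than its 60 bases and so crosses an exon junction; it read 111.7 and 112.6, a difference of 0.14. The middle probe, chr2:152105978-152106037, read 3064.2 and 4744.8, a difference of 0.76, or 1.69-fold. Only this middle probe, which stands for the gene above, differed by more than the spot noise. The most 3-prime probe, chr2:152106713-152106772, lies 735 bases downstream of it and read 492.3 and 412.3, a difference of -0.13 with a spot SD of 0.51. RefSeq lists pseudogenes of Csnk2a1 elsewhere in the genome, and their part in these signals was not tested. The first sequence is the whole junction probe and the others are the last 30 bases of their probes, shown because the middle probe alone stood apart.
Csnk2a1 probe 1: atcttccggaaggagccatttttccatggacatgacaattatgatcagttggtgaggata
Csnk2a1 probe 2: tccttcatatgtgaaagatccagtgttgga
Csnk2a1 probe 3: atttctcaaccatagagagagctaaaagga

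Among the CK1 genes, Csnk1d and Csnk1e, which encode the closely related clock kinases CK1 delta and CK1 epsilon, were both higher by the probe that stands for the gene. Csnk1d read 683.4 and 541.6 at its most 5-prime probe (chr11:120830435-120830494), a difference of -0.21 within a spot SD of 0.51. The second probe, chr11:120825115-120825174, read 3047.8 and 3251.4, a difference of 0.22. The third, chr11:120823464-120823523, read 2033.2 and 2949.9, a difference of 0.66. The most 3-prime, chr11:120823086-120823145, read 14087.6 and 18283.6, a difference of 0.50, or 1.42-fold. Csnk1d was therefore higher by more than 2 spot SDs at its last pair of probes, and not beyond 2 spot SDs at the first pair. For the most 3-prime probe this was lost after loess (0.20) and with quantile normalization (0.23). The whole first probe and the last 30 bases of probe 4 are shown as the ends of this series.
Csnk1d probe 1: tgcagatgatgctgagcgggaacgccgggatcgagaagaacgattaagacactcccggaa
Csnk1d probe 4: ttgtgtactttaacaattgtgtaaataata

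Csnk1e read 14449.3 and 19779.4 with a probe that crosses an exon junction (chr15:79249597-79250373), a difference of 0.58, or 1.49-fold. Its other probe, chr15:79249421-79249480, lies just 3-prime of it on the same strand and stayed below the background limit of both arrays, at 26.0 and 28.5. The gene thus rests on 1 measured probe, whose difference lay within 2 spot SDs after loess (0.27) and with quantile normalization (0.32). No fold is given for the second probe. Their last 30 bases are shown because neighbouring targets gave a signal with 1 probe and none above background with the other.
Csnk1e probe 1: tttgcttagtgtcttcactgcattttcttt
Csnk1e probe 2: ccaatggcaaaaagacaagacctcgttagc

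The genes of the membrane-anchored CK1 gamma enzymes differed in size of change. Csnk1g1 read 2197.6 and 3398.4 at its most 3-prime probe (chr9:65892662-65892721), a difference of 0.76, or 1.69-fold. Its middle probe, chr9:65887709-65887768, read 619.7 and 408.1, a difference of -0.48, within a spot SD of 0.51. The most 5-prime probe, chr9:65858235-65858294, read 78.9 and 68.6, a difference of -0.07. The downstream probe was higher by more than 2 spot SDs, while neither upstream probe was higher. The whole first probe and the last 30 bases of the third are shown.
Csnk1g1 probe 1: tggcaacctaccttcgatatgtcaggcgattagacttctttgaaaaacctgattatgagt
Csnk1g1 probe 3: catttcatagggcaccgtgacaacacaaat

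Csnk1g2 was the gene with the smallest difference. Its probe of higher mean signal, chr10:80102953-80103012, read 6587.2 and 6176.8, a difference of 0.03. This value changed sign with the scaling, to -0.07 with scaling to the array median and -0.22 after loess. The other probe, 275 bases downstream, read 5401.4 and 6918.4, a difference of 0.48, or 1.40-fold. Csnk1g2 was thus higher by more than 2 spot SDs at 1 of its 2 probes. For that probe this was lost after loess (0.23), with quantile normalization (0.28) and with normexp (0.24).

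Csnk1g3, also of the CK1 gamma branch, had the largest difference of the CK1 genes. It read 2701.0 and 4342.1 at its most 3-prime probe (chr18:54114992-54115051), a difference of 0.81, or 1.76-fold. A probe 36401 bases upstream read 238.3 and 225.3, a difference of 0.05, and the most 5-prime probe stayed below the background limit of both arrays, at 11.0 and 10.8. Csnk1g3 was therefore higher by more than 2 spot SDs at its downstream probe. With a spot SD of 0.51 the upstream probe cannot say whether a rise was absent there, and the most 5-prime probe gave no signal to compare.

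Csnk1a1 had the widest range between its probes among the casein kinase genes. It encodes CK1 alpha, the priming kinase of the beta-catenin destruction complex, and had 5 probes on chromosome 18. Probe 1, the most 5-prime, chr18:61715051-61715110, read 691.1 and 518.7, a difference of -0.29. Probe 2, chr18:61735192-61736208, crosses an exon junction and read 2085.4 and 1245.2, a difference of -0.62, or 1.53-fold lower. Probe 3, chr18:61736169-61736228, read 801.1 and 494.2, a difference of -0.57, but it shares a run of 40 bases with probe 2 and is no independent reading. Probe 4, chr18:61747817-61747876, read 15662.4 and 21007.7, a difference of 0.55. Probe 5, chr18:61749898-61749957, read 5933.5 and 9063.5, a difference of 0.74, or 1.67-fold higher. The 3 upstream probes were thus lower and both downstream probes higher on the array labelled MARVELD1, and probes 2, 4 and 5 differed by more than 2 spot SDs each. Probe 4 came to 0.24 after loess, 0.29 with quantile normalization and 0.28 with normexp, all within 2 spot SDs. The mean difference over the 5 probes was -0.037, against 0.55 for the probe that stands for the gene.

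**Figure D2:**
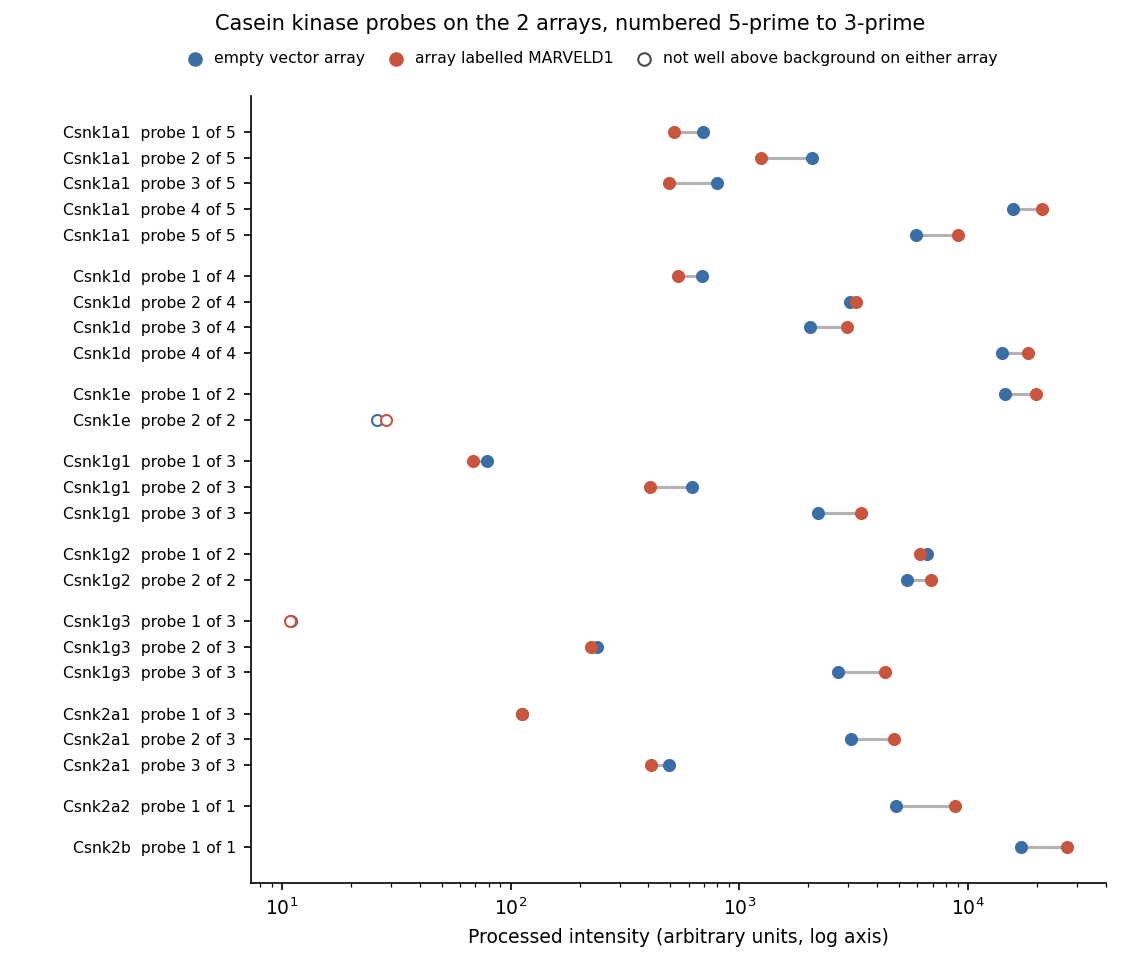
Each row is 1 casein kinase probe, ordered 5-prime to 3-prime within its gene, with its processed intensity (log axis) on the empty vector array in blue and on the array labelled MARVELD1 in red; open circles mark probes not well above background on either array. Red lies to the left of blue at the first 3 Csnk1a1 probes and to the right at the last pair, and lies to the right for Csnk2a2 (4847.2 against 8791.1) and Csnk2b (17101.6 against 27087.6).

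Across the family, 22 of the 24 probes were measured on both arrays, 15 higher and 7 lower on the array labelled MARVELD1, with 0 past 2-fold either way. The median difference of these probes was 0.35, against 0.15 over all 26802 probes measured on both arrays. The difference exceeded 2 spot SDs for 12 of the 22, and for 8 after loess or quantile normalization. The share of all probes higher, or past 2 spot SDs, was not computed. These probe counts therefore do not set the casein kinases apart from other genes. By Feature Extraction's own error estimate, the error of each measured intensity was 10.0% to 15.8% of the intensity.

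The difference was more positive at the 3-prime end in most of these genes, as it was in most genes of these arrays. This comparison was formed after the values had been seen. In 5 of the 6 genes with more than 1 measured probe, the most 3-prime probe differed more positively than the most 5-prime probe, and over all 5379 such genes 66.7% did. The median of that contrast was 0.74 for the 6 genes and 0.23 for all genes, with quartiles of -0.14 and 0.64. The contrasts were 1.03 for Csnk1a1, 0.83 for Csnk1g1, 0.77 for Csnk1g3, 0.71 for Csnk1d, 0.45 for Csnk1g2 and -0.27 for Csnk2a1. Csnk1a1, Csnk1d and Csnk1g1 read below 0 at the 5-prime end and above 0 at the 3-prime end, 3 of 6, against 29.7% of all genes. Their 5-prime differences of -0.29, -0.21 and -0.07 each lay within the spot SD of 0.51, so none was lower beyond spot noise. In these genes and in Csnk1g3 the 5-prime probe was also the far dimmer one, as in Csnk1g1 with 78.9 against 2197.6 for the empty vector. Its spot SD was 0.51, against 0.17 at the 3-prime probe. Each contrast carries the noise of both its probes, and none was tested against it. Whether position or intensity goes with the difference was not tested. Probes lay on both sides of 0 in 4 of the 6, against 45.9%, and spanned a range of 1 or more in 2 of the 6, against 20.2%. With probes at least 500 bases apart 4 of 5 contrasts were above 0, against 67.6%, and with probes at least 5000 bases apart 4 of 5, against 65.0%. After loess 5 of 6 contrasts were still above 0, against 65.8% of all genes. A more positive difference toward the 3-prime end was therefore found in most genes of these arrays, and its cause was not tested.

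**Figure D3:**
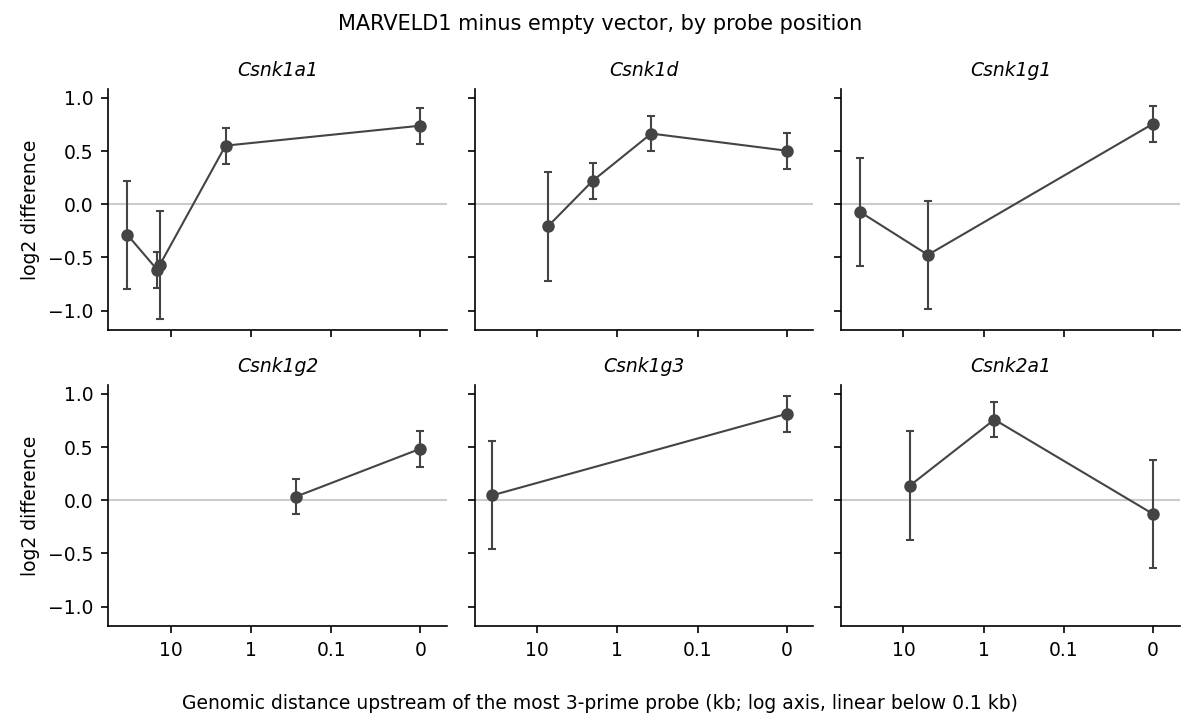
Each panel shows 1 gene with more than 1 measured probe, the log2 difference of each probe against its genomic distance upstream of the gene's most 3-prime probe (kb, log axis, linear below 0.1 kb), so that transcription runs left to right; bars are 1 SD of spot noise. The last measured probe is the more positive end in 5 panels, while Csnk2a1 goes from 0.76 to -0.13 at its last probe.

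CK2 and CK1 genes overlapped. The median was 0.79 for the 3 CK2 genes, from 0.76 to 0.99, and 0.57 for the 6 CK1 genes, from 0.03 to 0.81. The difference between the medians was 0.23, or 0.13 when genes were read at their most 3-prime probe and 0.51 with the mean of probes.

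**Figure D4:**
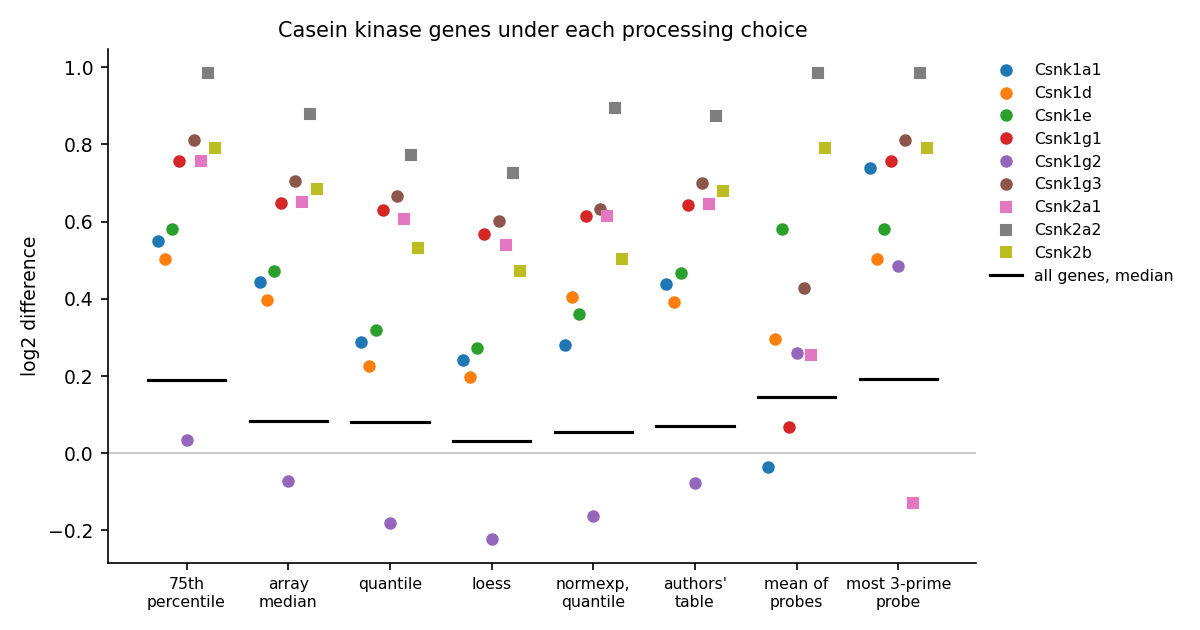
Each point is the log2 difference of 1 casein kinase gene (circles CK1, squares CK2) under 1 processing choice, and black bars are the median of all genes. Csnk2a2 is highest throughout, Csnk1g2 is below 0 under the 5 other scalings and value sources, Csnk1a1 lies at -0.037 with the mean of its probes and Csnk2a1 at -0.13 with its most 3-prime probe.

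Related genes of the same pathways, listed by knowledge of their roles, gave mixed differences. Each count past 2-fold in a list below stands against 5.52% of all genes higher and 3.57% lower. Among relatives in the CK1 superfamily, 0 of 5 passed 2-fold, with a median of 0.37. Vrk1 and Vrk3, nuclear kinases of the vaccinia-related branch, stood at 0.69 (another probe at 0.28) and 0.63, and the tau tubulin kinases Ttbk1 and Ttbk2 at -0.45 and -0.05, with other probes at 0.20 and -0.54. Of 9 detected scaffolds and activators of CK1, 1 passed 2-fold higher, against 5.52% of all genes, and 0 lower, with a median of 0.38. It was Fam83e, at 72.2 and 138.1, or 2.09-fold higher; FAM83 proteins bind and place CK1 enzymes. Its difference of 1.06 was 0.96 with scaling to the array median, 0.92 after loess and 0.55 with normexp, so under these scalings 0 of the list passed. Fam83f stood at 0.81 and the centrosome anchor gene Akap9 at 0.04, and Fam83b, measured on the empty vector array only, was at least 1.32-fold lower.

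Of 13 genes of the beta-catenin destruction complex and Wnt receptor 0 passed 2-fold. Their median was 0.10, or -0.01 with scaling to the array median. Gsk3b, the kinase that follows CK1 alpha on beta-catenin, stood at -0.74 with another probe at -0.89, and the scaffold gene Axin1 at -0.41. Fbxw11, an adaptor of the ubiquitin ligase, stood at 0.56, and beta-catenin itself (Ctnnb1) at 0.50, with other probes at 0.20 and -0.60.

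Of 16 detected clock genes 0 passed 2-fold, against 5.52% of all genes higher and 3.57% lower. In this list 6 were above 0, against 65.4% of all genes, and the median was -0.18. Per1, a substrate of CK1 delta and epsilon, stood at -0.75 and Rora, an activator of Bmal1, at -0.79 with another probe at -1.27. Clock and Nr1d2 stood at 0.51 and 0.45. Among 9 genes of the Hedgehog and Hippo pathways, in which CK1 acts, 0 passed 2-fold, with a median of 0.29. Sufu, which restrains GLI factors, stood at 0.82 with another probe at 0.01, the receptor gene Smo at 0.73 with another at -0.58, Gli2 at -0.45 and Wwtr1, which encodes TAZ, at -0.28. Of 7 NFAT and p53 genes 0 passed 2-fold, with a median of -0.13. Mdm2, the ubiquitin ligase for p53, stood at 0.91 with another probe at -0.41, Trp53 at -0.78 with another at -0.51, Mdm4 at -0.50 with others at 0.51 and 0.70, and Nfatc4 at 0.03.

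Of 18 detected partners and substrates of CK2 14 were above 0, against 65.4% of all genes, with a median of 0.47. After loess 11 of 18 were above 0, against 52.9%, and the median was 0.16, when that of all genes was 0.03. The nucleolin gene Ncl, for a nucleolar protein that CK2 phosphorylates, passed 2-fold higher, 1 of 18, against 5.52% of all genes. It read 10376.1 and 25716.4, or 2.71-fold higher, and its other probes gave 1.94, 1.03 and 1.47. All 4 Ncl probes were higher. The translation factor gene Eif2s2 stood at 0.76 with another probe at 0.06. Top2a, for a topoisomerase, stood at -0.64 with another probe at -0.22.

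The secretory pathway has its own casein kinase, Fam20c, which phosphorylates secreted proteins in the Golgi and belongs to neither CK1 nor CK2. It read 3910.7 and 1933.6, a difference of -0.89. Fam20a, its pseudokinase partner, read 3739.0 and 684.7, or 5.00-fold lower, with a second probe at -2.35. Fam20b, a xylose kinase of proteoglycan synthesis, stood at 0.43. In this family 1 of 3 passed 2-fold lower, against 3.57% of all genes, and 0 higher. Fam20c passed too with quantile normalization (-1.02), after loess (-1.08) and narrowly in the authors' deposited table, which made 2 of 3. Of 5 caseins 3 were detected, at low intensities of 92.5 to 435.7 over both arrays, and 0 passed 2-fold: Csn1s2b stood at 0.58, Csn3 at 0.45 and Csn1s1 at -0.32.

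**Figure D5:**
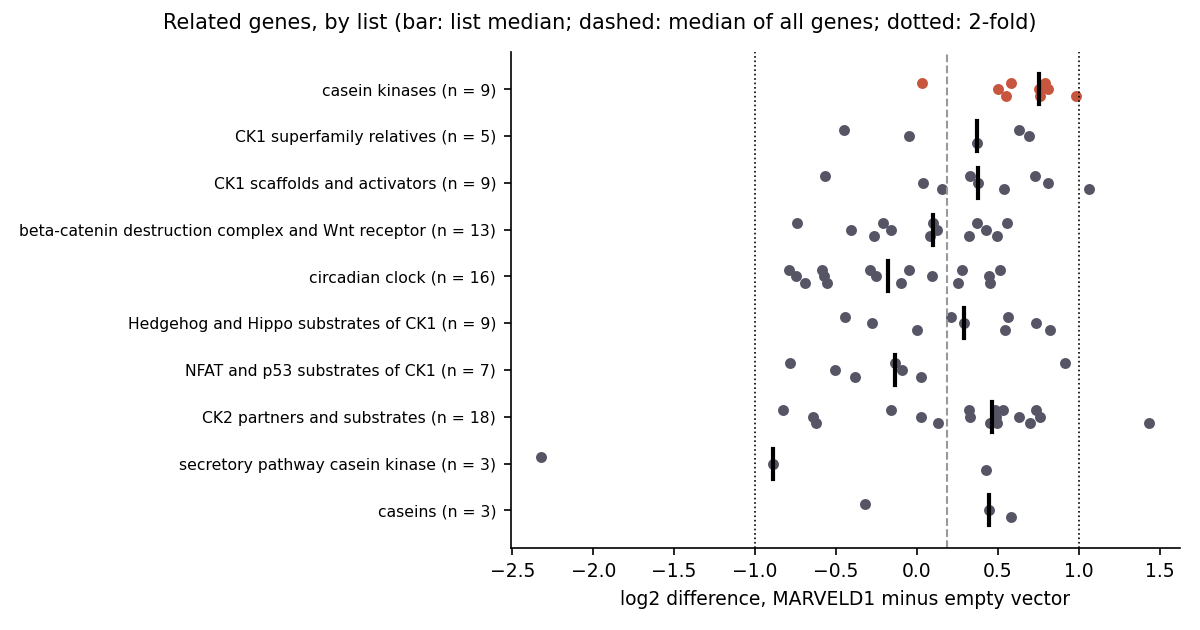
Each point is the log2 difference of 1 detected gene (MARVELD1 minus empty vector, gene by its probe of highest mean signal, a bound for genes measured on 1 array), grouped by list with the number detected; black bars are list medians, the dashed line is the median of all genes (0.19) and dotted lines mark 2-fold. The casein kinases have a median of 0.76, and the points past 2-fold are Fam83e, Ncl and Fam20a.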

How the data were processed

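The deposited scanner files give the intensity of each spot as processed by Agilent Feature Extraction 9.5.3.1, per the file headers, after its spatial and multiplicative detrending. Probe coordinates are on mm9. Without an mm9 annotation, a probe's place in its transcript is given only where its coordinates show a junction. The authors' deposited table gives normalized intensity for 26851 probes. At the median over its probes, the values here were 124.6 times those of that table for the empty vector and 123.3 times for the other array. This ratio was not the same for every probe. Ptprc stood at 0.47 here and 0.11 in that table, and Trp53 at -0.78 and -0.91. Control and outlier spots were left out, log2 of the intensity minus the array's 75th percentile was averaged over spots (Python 3.11.15, pandas 2.3.3), and probes were named through RefSeq (GRCm38.p6) by accession, symbol or unique older name. A gene is its probe with the highest mean among those well above background on at least 1 array. Where 1 array was below background, its value was raised to the lowest mean of a probe well above background (33.0 and 33.8), which gives a bound for counts and medians. Bounds named in the text use the lowest single spot well above background (36.6 and 38.1).

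The members and lists were chosen with earlier results of these data known. The rule for named genes took all members, Marveld1, and from each list the 2 highest, the 2 lowest and any past 2-fold. 1 gene that this rule named is not reported here. Alternatives were scaling to the median, quantile normalization, loess and normexp (offset 50, limma 3.58.1), the authors' table, other probe choices, filters and fold limits. The code was tested on simulated data. Precision is limited by having 1 array in each group.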

Additional observations from a re-analysis of the deposited data

How the results depend on the processing

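The median of the 9 genes, 0.76, came to 0.29 with the mean of probes, 0.47 after loess, 0.50 with normexp and 0.53 with quantile normalization, and moved by less than the spot SD of 0.17 under the other 5 alternatives. Scaling moved the median of all genes from 0.19 to 0.03 after loess; relative to it the members stood at 0.57, 0.44 after loess, 0.45 with quantile normalization and 0.45 with normexp. Csnk1a1 turned to -0.037 with the mean of probes, and Csnk2a1 to -0.13 with its most 3-prime probe. At 1.5-fold 5 casein kinase genes were higher in place of 0, against 19.7% of all genes, and 2 after loess, against 11.9%. Counts of all genes past 2-fold were 913 higher and 590 lower. Each other scaling turned this split, to 618 higher and 781 lower after loess and 687 and 727 with scaling to the array median. It also turned with quantile normalization (687 and 707), with normexp (302 and 417) and in the authors' table (479 and 617). The excess of higher genes therefore depended on the scaling. More genes stayed higher with the mean of probes (571 and 464), the most 3-prime probe (720 and 492) and the other filters. With the scaling that gave 913 and 590, the counts were 3253 and 1493 at 1.5-fold, and 211 and 219 at 3-fold. The CK2 minus CK1 difference, 0.23, was 0.51 with the mean of probes and 0.13 with the most 3-prime probe. The median 3-prime minus 5-prime contrast, 0.74, was 0.57 with quantile normalization and 0.56 after loess, alternatives added after seeing the data. The epithelial marker median turned to -0.037 in the authors' table, which holds 1 of these genes. The cause of these shifts was not tested. No paired analysis was possible because each group has 1 array. Signal over background limits Csnk1e and Csnk1g3, each with a probe not well above background on either array.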
